A study of Homo sapiens with 6 samples.

Results

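A set of 10 BCL2 family genes was followed in HT1080 cells, an established human fibrosarcoma line. They were found as the rows of the deposited table named BCL2, BCL2L1, BCL2L2, MCL1, BAK1, BID, BAD, BIK, BMF or BCL2L11, and all 10 were present among 60675 gene rows. BAX, BBC3 and PMAIP1, which are p53 targets, were not counted among them. The cells carried the label WT for genotype and had been given SW-138 or SW-113, both described as inhibitors of the deacetylase KDAC6 (HDAC6), at 1 µM for 48 h. The cells were grown in MEM with fetal bovine serum and frozen as pellets before RNA extraction. There were 3 libraries of ribosome-depleted total RNA per compound, 6 in all. The labels used here hold no vehicle or untreated group, so each compound was compared with the other alone and no level without an inhibitor was measured. "Higher" and "lower" are therefore statements about SW-138 relative to SW-113, and a gene higher in SW-138 may equally be one that is lower in SW-113.

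BCL2 family proteins decide whether the outer mitochondrial membrane is opened, the step that releases cytochrome c and starts the intrinsic route of apoptosis. The effectors BAK and BAX form the pores, the anti-apoptotic members (BCL2, BCL-XL, BCL-W and MCL1) hold the effectors and their activators in check, and the BH3-only members (BID, BIM, BAD, BIK and BMF) relay death signals by binding the anti-apoptotic proteins or by activating the effectors directly. MCL1 protein is short-lived and depends on steady transcription, while BIM and BMF are controlled strongly at the mRNA level and are tethered to the cytoskeleton through dynein light chains.

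BMF and BCL2L11, which encode the BH3-only proteins BMF and BIM, were the members that were higher in SW-138. BMF was 1.80-fold higher and BCL2L11 1.31-fold higher. The other 7 tested members, among them the 4 anti-apoptotic genes and the effector gene BAK1, did not pass the test, with log2 fold changes from -0.26 in BAK1 to 0.22 in BCL2L2. Passing means an adjusted p under 0.05, which 6.82% of all 16905 tested genes had, 2.76% as higher and 4.06% as lower. BIK had too few counts to be tested. The promoters of BMF and BCL2L11 are shown because these were the members past the threshold. They come from RefSeq (GRCh38.p14), run from 250 bases before to 50 bases after the annotated start and are written 5′ to 3′ on the gene's strand. Capitals mark matches to 1 of 8 motifs on either strand, as described below the sequences.

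BMF promoter, chr15:40108830-40109129, minus strand: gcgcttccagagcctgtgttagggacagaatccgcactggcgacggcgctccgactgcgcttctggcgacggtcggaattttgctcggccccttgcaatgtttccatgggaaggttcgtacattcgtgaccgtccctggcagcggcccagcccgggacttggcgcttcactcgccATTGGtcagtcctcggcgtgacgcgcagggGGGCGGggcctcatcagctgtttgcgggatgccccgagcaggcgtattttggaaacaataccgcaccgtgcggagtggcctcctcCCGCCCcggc

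BCL2L11 promoter, chr2:111120664-111120963, plus strand: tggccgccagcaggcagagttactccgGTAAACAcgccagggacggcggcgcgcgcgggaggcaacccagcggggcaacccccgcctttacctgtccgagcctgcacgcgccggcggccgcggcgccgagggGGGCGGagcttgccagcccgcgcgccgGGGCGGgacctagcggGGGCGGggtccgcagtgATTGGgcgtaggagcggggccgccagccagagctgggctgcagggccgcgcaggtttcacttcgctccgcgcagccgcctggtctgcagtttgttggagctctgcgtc

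The motifs searched, on both strands, were the GC box with the letters GGGCGG, the CCAAT box with its own letters, and the TATA box of the letters TATAAA. Beside these came the E-box, spelled CACGTG, and the core bound by FOXO factors, spelled TGTTTAC. The remaining motifs were the AP-1 site, read as TGANTCA, the cyclic AMP element (CRE), read as TGACGTCA, and the E2F site, read as TTTCGCGC. Matches did not overlap in either window, and those on the opposite strand are the CCAAT box of both windows (printed as ATTGG), the FOXO core (printed as GTAAACA) and the BMF GC box at 41 (printed as CCGCCC). The BMF window held 2 GC boxes and 1 CCAAT box. The BCL2L11 window held 3 GC boxes, 1 CCAAT box and 1 FOXO core, which starts at -223 relative to the start. Of all 35116 RefSeq promoters of the same length, 45.0% held a GC box, 34.6% a CCAAT box and 3.42% the FOXO core. The TATA box, E-box, AP-1, CRE and E2F letters were not in either window, and 11.5%, 7.26%, 7.71%, 1.85% and 0.515% of all promoters held them. The BMF window was 65.0% G or C and the BCL2L11 window 74.7%, where the median promoter had 58.67%. BMF has another RefSeq start, not printed here, whose window was 50.3% G or C and held none of the 8 motifs. Of the 7 members with RefSeq promoters, 6 held a GC box and 4 a CCAAT box in at least 1 window. The matches are letters in a window and were not tested as binding sites.

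Certain features of the libraries touch these results. Totals ran from 32771665 to 40527208 counts under SW-138 and from 39249698 to 50871576 under SW-113. On the first principal component SW-138 replicate 2 lay far from the other 5 libraries, and without it BMF and BCL2L11 were at 0.86 and 0.36 on the log2 scale, both past the threshold. The signal recognition particle RNA RN7SL1 took 2.14% to 2.88% of the counts under SW-138 and 3.72% to 4.39% under SW-113. Scaling by total count alone raised the median of all genes by 0.06, with BMF at 0.91 and BCL2L11 at 0.45. The cells were checked against marker genes in CPM, which are counts scaled to 1000000 per library with TMM factors. The mesenchymal markers had a summed level of 4930 to 5400 CPM under SW-138 and 4450 to 4930 CPM under SW-113, with VIM and FN1 the largest. Of these 8 genes 6 were tested and 1, TWIST1, passed as lower (-0.42 on the log2 scale), and PRRX1 and THY1 were near 0. The part of RN7SL1 and of these markers in the results was not tested. The epithelial, blood and endothelial marker lists summed to at most 3.52, 0.217 and 0.543 CPM under SW-138 and 3.32, 0.0983 and 0.519 CPM under SW-113, with KRT5, KRT14 and HBB at 0 in all libraries.

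BMF binds anti-apoptotic proteins and is held on the actin cytoskeleton, with the myosin V motor, in healthy cells. Its gene (ENSG00000104081, GRCh38 chromosome 15, 40087890 to 40108892, minus strand) had 11.26, 11.26 and 11.99 CPM in SW-138 replicates 1, 2 and 3. In SW-113 replicates 1, 2 and 3 it had 7.32, 6.43 and 5.48 CPM. Every SW-138 library lay above every SW-113 library, and the SW-138 libraries lay closer together. The means were 11.5 ± 0.423 CPM under SW-138 and 6.41 ± 0.922 CPM under SW-113 (SD, n = 3 each). They rested on 381 to 470 estimated counts per SW-138 library and 223 to 319 per SW-113 library. The log2 fold change was 0.85 ± 0.11 (SE; 95% interval 0.61 to 1.08), at an adjusted p of 0.00275 (edgeR quasi-likelihood test, Benjamini-Hochberg over all tested genes). By p it was number 65 of 16905 tested genes. The call held in all 6 fits that left out 1 library, with log2 fold changes from 0.75 to 0.95. RNA from whole cultures was measured, so a larger share of cells with BMF mRNA and more BMF mRNA per cell cannot be told apart, here or for any other gene.

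BCL2L11 encodes BIM, which binds all the anti-apoptotic proteins and can also activate BAX and BAK. The gene (ENSG00000153094, chromosome 2, 111119378 to 111168447, plus strand) had 40.5, 39.7 and 35.25 CPM in SW-138 replicates 1, 2 and 3, against 28.1, 31.9 and 28.3 CPM in SW-113 replicates 1, 2 and 3. The groups did not overlap, although SW-138 replicate 3 and SW-113 replicate 2 came near each other. The means were 38.5 ± 2.84 CPM under SW-138 and 29.4 ± 2.13 CPM under SW-113 (SD, n = 3 each). The log2 fold change was 0.39 ± 0.07 (SE; 95% interval 0.22 to 0.55; edgeR, Benjamini-Hochberg adjusted p = 0.0133). This call was lost without SW-138 replicate 1 (adjusted p = 0.0592) and without SW-113 replicate 1 or 3 (0.065 and 0.0784). Over all 16 alternatives the adjusted p ran from 9.28e-06 to 0.0784 and the log2 fold change from 0.35 to 0.45. Exons of BCL2L11 share 727 bases with the long noncoding gene MIR4435-2HG on the opposite strand. MIR4435-2HG was at 54.4 ± 1.51 CPM under SW-138, against 58.1 ± 3.13 CPM under SW-113. The strand setting of the counting is not given in the sources used here, so reads from the shared bases may not be separated.

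**Figure D1:**
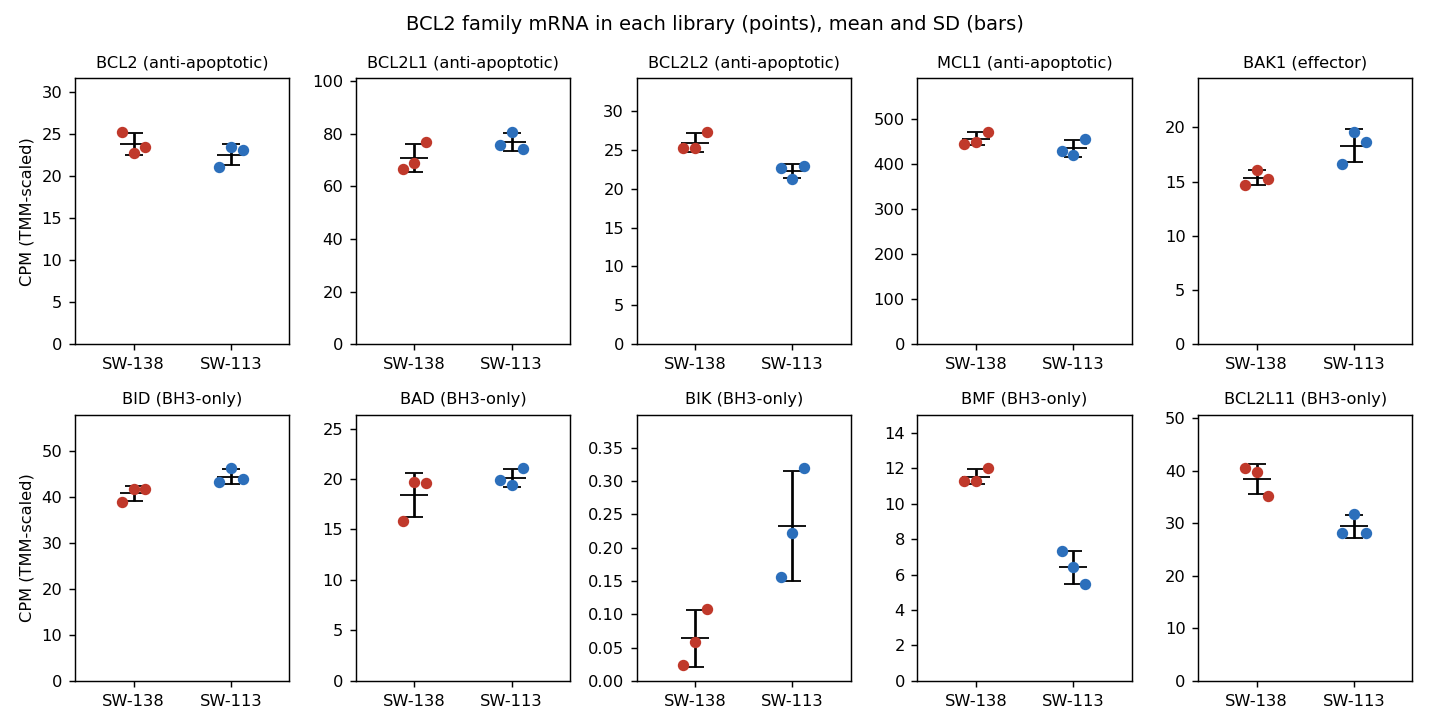
CPM (TMM-scaled, linear axes from 0) of the 10 BCL2 family genes, SW-138 on the left and SW-113 on the right of each panel; each point is 1 library, the horizontal bar the mean and the whiskers the SD (n = 3). BMF and BCL2L11 show separate groups, SW-138 above SW-113, while BCL2, BCL2L1, MCL1 and BAD overlap.

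Among the anti-apoptotic genes no member passed. MCL1 (ENSG00000143384, chromosome 1, 150574551 to 150579738, minus strand), whose product neutralises BIM, NOXA and BAK, was the most abundant of the 10. It had 445, 449 and 471 CPM in SW-138 replicates 1, 2 and 3, against 428, 419 and 455 CPM in SW-113 replicates 1, 2 and 3. The groups overlapped. The log2 fold change was 0.07 ± 0.05 (SE; edgeR, Benjamini-Hochberg adjusted p = 0.491), and the 95% interval of the fold ran from 0.973 to 1.13.

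BCL2L1 (ENSG00000171552, chromosome 20, 31664452 to 31723989, minus strand) encodes BCL-XL and, by splicing, the shorter pro-apoptotic BCL-XS, which the gene-level counts do not separate. It had 66.8, 69.0 and 76.95 CPM in SW-138 replicates 1, 2 and 3, against 75.75, 80.9 and 74.3 CPM in SW-113 replicates 1, 2 and 3. SW-138 replicate 3 lay within the range of the SW-113 libraries. The log2 fold change was -0.12 ± 0.06 (SE; 95% interval -0.26 to 0.02). BCL2 (ENSG00000171791, chromosome 18, 63123346 to 63320128, minus strand), the founding member of the family, had 25.25, 22.7 and 23.4 CPM in SW-138 replicates 1, 2 and 3, against 21.1, 23.4 and 23.0 CPM in SW-113 replicates 1, 2 and 3. Its groups overlapped, and the log2 fold change was 0.08 ± 0.07 (SE; 95% interval -0.08 to 0.23).

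BCL2L2 (ENSG00000129473, chromosome 14, 23298790 to 23311759, plus strand), the gene for BCL-W, was the anti-apoptotic member nearest the threshold. It had 25.2, 25.2 and 27.3 CPM in SW-138 replicates 1, 2 and 3, against 22.7, 21.3 and 22.9 CPM in SW-113 replicates 1, 2 and 3. The groups did not overlap. The log2 fold change was 0.22 ± 0.06 (SE), with an adjusted p of 0.0693 (edgeR, Benjamini-Hochberg), and over the alternatives the adjusted p ran from 0.0234 to 0.22. It passed with scaling by total count alone (0.0234) and when only genes averaging 5 CPM or more were tested (0.0473). With the replicate number as a block it passed as well (0.0322). BCL2L2 shares 813 exon bases with the readthrough gene BCL2L2-PABPN1 on the same strand, and the division of reads between them is an estimate. BCL2L2-PABPN1 had 16.5, 13.1 and 17.2 CPM in SW-138 replicates 1, 2 and 3, against 16.1, 19.5 and 15.85 CPM in SW-113 replicates 1, 2 and 3. Its log2 fold change was -0.14 ± 0.12 (SE). The sum of both genes was 41.5 ± 3.16 CPM under SW-138 and 39.4 ± 1.15 CPM under SW-113 (SD, n = 3 each), and in the sum the libraries of the compounds overlapped.

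The effector gene BAK1 (ENSG00000030110, chromosome 6, 33572547 to 33580293, minus strand) had 14.7, 16.1 and 15.2 CPM in SW-138 replicates 1, 2 and 3, against 16.6, 19.6 and 18.7 CPM in SW-113 replicates 1, 2 and 3. All SW-138 libraries lay below all SW-113 libraries, by a narrow margin between SW-138 replicate 2 and SW-113 replicate 1. The log2 fold change of -0.26 ± 0.08 (SE) did not pass (edgeR, Benjamini-Hochberg adjusted p = 0.0826). The other effector gene, BAX, lies among the p53 targets. It was at 49.04 ± 3.37 CPM under SW-138, against 66.8 ± 1.20 CPM under SW-113 (SD, n = 3 each), while BBC3 and PMAIP1, the genes for PUMA and NOXA, were at -0.09 ± 0.09 and 0.07 ± 0.05 (log2 fold change, SE) and did not pass.

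Of the other BH3-only genes none passed. BID (ENSG00000015475, chromosome 22, 17734138 to 17774770, minus strand), whose product is cut by caspase-8 and links death receptors to mitochondria, had 39.03, 41.7 and 41.9 CPM in SW-138 replicates 1, 2 and 3, against 43.4, 46.3 and 43.9 CPM in SW-113 replicates 1, 2 and 3. The groups did not overlap, yet the log2 fold change was only -0.12 ± 0.06 (SE; edgeR, Benjamini-Hochberg adjusted p = 0.217). BAD (ENSG00000002330, chromosome 11, 64269830 to 64284704, minus strand), which growth factor kinases inactivate by phosphorylation, had 15.85, 19.7 and 19.6 CPM in SW-138 replicates 1, 2 and 3, against 19.9, 19.4 and 21.1 CPM in SW-113 replicates 1, 2 and 3. The groups overlapped, and SW-138 replicate 1 was the lowest library. Its log2 fold change of -0.13 ± 0.09 turned to 0.04 when trends with transcript length and GC content were removed. BAD has the shortest transcript of the tested members, at 1157 bases, and shares 404 exon bases with GPR137 on the opposite strand, which was at -0.13 ± 0.07 (log2 fold change, SE).

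BIK (ENSG00000100290, chromosome 22, 43110748 to 43129712, plus strand), a BH3-only protein of the endoplasmic reticulum, was barely detected. It had 1, 2 and 4 counts in SW-138 replicates 1, 2 and 3, against 6, 11 and 13 counts in SW-113 replicates 1, 2 and 3. These sum to 7 under SW-138 and 30 under SW-113, and no library of one compound overlapped the other. With all genes kept that had 1 count in any library, its log2 fold change was -1.84 with an adjusted p of 0.146 (edgeR, Benjamini-Hochberg), so a difference was not shown at this depth.

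**Figure D2:**
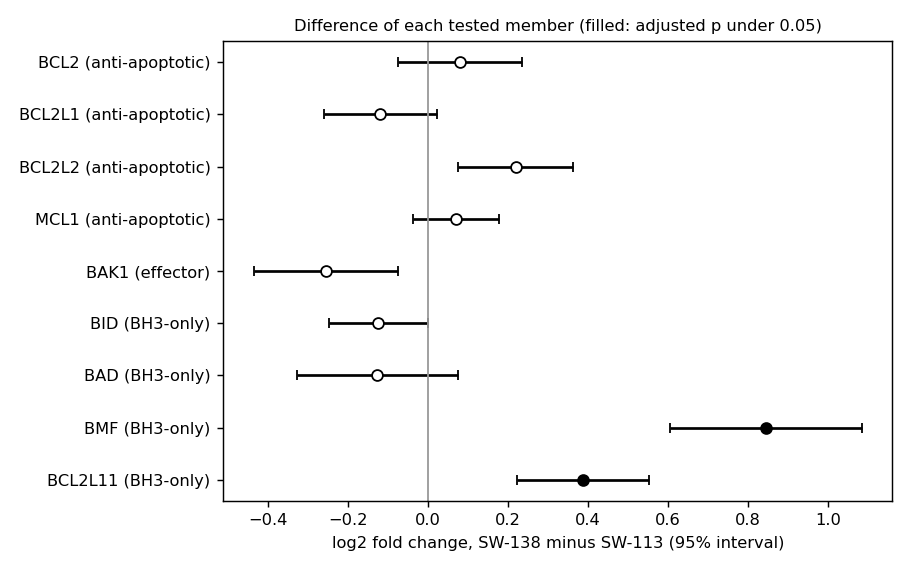
Log2 fold change, SW-138 minus SW-113, of the 9 tested members; points are edgeR estimates, bars the 95% intervals, and filled points passed at an adjusted p under 0.05. BMF at 0.85 and BCL2L11 at 0.39 are filled, and the other intervals lie between -0.44 and 0.36.

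Of the 9 tested members, 7 did not pass, 2 were higher and 0 were lower. At an unadjusted p under 0.05 (edgeR) there were 3 members higher and 2 lower. At least 3664 of all 16905 tested genes had such a p, 3664 being the place of BID by p (0.0471, edgeR). DESeq2 and limma-voom each called 2 members higher and 0 lower, where they called 1357 and 1129 of all tested genes. Without SW-138 replicate 1, SW-113 replicate 1 or SW-113 replicate 3 the count of members called was 1 in place of 2. The libraries of the compounds did not overlap for 5 of the 9 members (BMF, BCL2L11 and BCL2L2 higher, BAK1 and BID lower). Over all tested genes this share was 27.9%, made up of 12.4% higher and 15.4% lower. The median log2 fold change of the 9 was 0.07, where that of all tested genes was 0.01, and the median size without sign was 0.13 in both.

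The order of the genes by level was set per transcript length, as CPM per kilobase of the longest annotated transcript. MCL1 came first, at 116 ± 3.61 under SW-138 and 110.3 ± 4.75 under SW-113 (SD, n = 3 each). BCL2L1 followed at 27.2 ± 2.05 under SW-138 and 29.5 ± 1.32 under SW-113. BID and BAD came next, at 16.4 ± 0.642 and 15.9 ± 1.91 under SW-138 and at 17.9 ± 0.632 and 17.4 ± 0.750 under SW-113, and their libraries overlapped. BAK1, BCL2L2 and BCL2L11 lay between 5.375 and 8.86 over all 6 libraries, and neighbours among them overlapped as well. Under SW-138 BCL2L11 was at 7.36 ± 0.543, BCL2L2 at 7.19 ± 0.343 and BAK1 at 6.94 ± 0.316, which did not differ beyond their spread. Under SW-113 they were at 5.625 ± 0.407, 6.18 ± 0.248 and 8.27 ± 0.691. The order of these 3 depended on the length used. Per kilobase of the median coding transcript BAK1 was the lowest of them, at 7.185 ± 0.328 under SW-138 and 8.57 ± 0.716 under SW-113. Per kilobase of the longest transcript BCL2 was at 3.19 ± 0.178 under SW-138 and 3.02 ± 0.168 under SW-113. BMF was at 2.46 ± 0.0902 under SW-138 and 1.37 ± 0.197 under SW-113, and BIK stood far below the rest.

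MCL1 was the largest part of the anti-apoptotic pool in both groups, by an amount that depends on the length used. Per kilobase of the longest transcript it made up 74.9% to 75.9% of the summed CPM per kilobase of the 4 anti-apoptotic genes under SW-138 and 72.7% to 75.3% under SW-113. The BH3-only pool of 5 genes leaves out the BH3-only genes PMAIP1 and BBC3, with longest transcripts of 1948 and 1838 bases. PMAIP1 was at 86.6 ± 2.43 CPM under SW-138 and 82.6 ± 4.36 CPM under SW-113. BBC3 was at 29.2 ± 4.20 CPM under SW-138 and 31.0 ± 1.69 CPM under SW-113 (SD, n = 3 each). All BH3-only values given here therefore hold for the 5 members alone. In a pool with both, the shares of BMF and BCL2L11 would be smaller. The summed BH3-only level relative to the anti-apoptotic genes would be larger. In the pool of 5 members BMF made up 5.48% to 6.08% under SW-138 and 2.74% to 3.75% under SW-113. BCL2L11 made up 15.6% to 19.6% under SW-138 and 12.7% to 14.2% under SW-113. The summed level of the 5 BH3-only genes was 26.5% to 29.1% of that of the anti-apoptotic genes under SW-138 and 27.8% to 29.4% under SW-113, so these ranges overlapped. With the median length of the coding transcripts in place of the longest, tried after the values were seen, MCL1 made up 48.7% to 50.1% under SW-138 and 47% to 49.9% under SW-113. On that scale BMF made up 17.1% to 18.6% under SW-138 and 9.54% to 12.7% under SW-113. BCL2L11 stood at 24.1% to 29.4% under SW-138 and 21.5% to 23.9% under SW-113. The shares of BMF and of BCL2L11 did not overlap between the compounds with either length. The summed BH3-only level relative to the anti-apoptotic genes did not overlap with the median coding length, at 36.1% to 39.6% under SW-138 and 34.1% to 35.6% under SW-113, so whether it overlapped depended on the length used. These are mRNA levels, and protein was not measured.

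**Figure D3:**
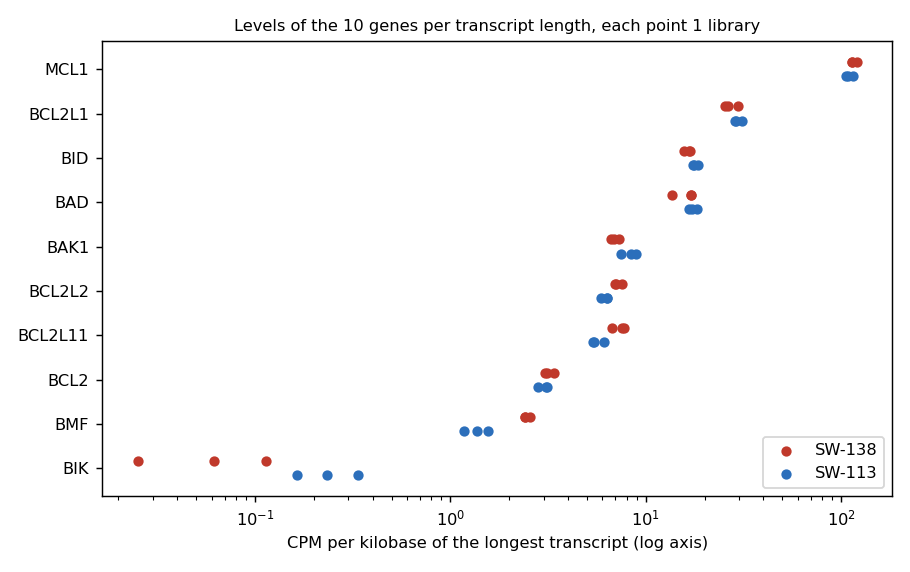
CPM per kilobase of the longest annotated transcript (log axis) for the 10 genes, ordered by their mean; each point is 1 library, SW-138 drawn above SW-113 in each row. MCL1 lies from 106.5 to 119.8 and BMF from 1.169 to 2.559, with no overlap between compounds for BMF.

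The other genes of the cell death pathway were described from lists drawn up from textbook knowledge. In the list of other BCL2 family genes, 9 of 13 could be tested. BCL2A1 was higher, BAX and BNIP3 were lower and the other 6 did not pass. BCL2A1, an anti-apoptotic member induced by NF-kB, was at 4.07 ± 0.165 CPM under SW-138 against 2.60 ± 0.334 CPM under SW-113 (log2 fold change 0.65 ± 0.14, SE; edgeR, Benjamini-Hochberg adjusted p = 0.0222). This call was lost in 5 of the 6 fits that left out 1 library, all but that without SW-138 replicate 2. BAX, given above, was lower at -0.45 ± 0.06, and BNIP3, a mitophagy receptor induced by hypoxia, was lower at -0.35 ± 0.05, with both calls kept in all 6 such fits. The median log2 fold change of the tested genes of this list was -0.10, where that of all tested genes was 0.01.

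Among 11 apoptosome and caspase genes 0 passed (edgeR), and DESeq2 and limma-voom called 0 as well. At an unadjusted p under 0.05 (edgeR), which at least 3664 of all 16905 tested genes had, there were 1 higher and 4 lower. The nearest to the threshold were ENDOG, a mitochondrial nuclease gene, at -0.29 ± 0.09 (log2 fold change, SE) and DFFB, the gene for the caspase-activated DNase, at -0.29 ± 0.10. ENDOG passed as lower when every gene with 1 count in any library was tested (edgeR, Benjamini-Hochberg adjusted p = 0.0116) and without SW-138 replicate 3 (0.0409), and over all 16 alternatives its adjusted p ran to 0.508. Without SW-138 replicate 2 the list also had 1 lower gene. Among 8 inhibitors of apoptosis (IAPs) and their antagonists 0 passed (edgeR), and DESeq2 and limma-voom called 0 here too. Only 1 was lower and 0 were higher at an unadjusted p under 0.05. HTRA2, whose product antagonises IAPs, was at -0.19 ± 0.07 and the IAP gene BIRC3 at 0.14 ± 0.11. The medians of these lists were -0.10 and 0.02 on the log2 scale.

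In the death receptor arm, where 9 of 10 genes could be tested, 8 did not pass, 1 was lower and 0 were higher. The lower gene was FAS, which encodes a death receptor and is also a p53 target, at 15.02 ± 0.904 CPM under SW-138, against 19.1 ± 0.913 CPM under SW-113 (SD, n = 3 each). Its log2 fold change was -0.35 ± 0.07 (SE; edgeR, Benjamini-Hochberg adjusted p = 0.02). FAS did not pass without SW-138 replicate 3 or any 1 of the 3 SW-113 libraries. Of 8 genes for outer membrane partners and mitochondrial shape, 5 did not pass, 3 were lower and 0 were higher. They were VDAC2 (-0.22 ± 0.05), a channel that binds BAK, VDAC3 (-0.20 ± 0.05) and MTCH2 (-0.24 ± 0.06), a docking site for truncated BID (log2 fold change, SE; edgeR, Benjamini-Hochberg adjusted p = 0.0272, 0.0326 and 0.0401). DESeq2 called 5 lower and limma-voom 4. With scaling by total count alone 0 of the 3 passed, and VDAC2 and VDAC3 passed in 1 and MTCH2 in 2 of the 6 fits that left out a library. The medians were -0.04 for the death receptor arm and -0.18 for the outer membrane partners. Reads of VDAC genes can be shared with processed pseudogenes.

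Among 15 tested genes that sequester members or set their turnover, 14 did not pass, 1 was lower and 0 were higher. DYNLL1, the dynein light chain that holds BIM, had 76.1, 82.3 and 82.7 CPM in SW-138 replicates 1, 2 and 3, against 103.1, 104.3 and 109.2 CPM in SW-113 replicates 1, 2 and 3. Every SW-138 library lay below every SW-113 library, and the log2 fold change was -0.39 ± 0.05 (SE; edgeR, Benjamini-Hochberg adjusted p = 0.00349). It passed in all 16 alternatives. DYNLL2, the light chain that holds BMF, was at -0.02 ± 0.06, and MCL1's ubiquitin ligase genes HUWE1 and FBXW7 were at 0.10 ± 0.06 and -0.04 ± 0.06 (log2 fold change, SE), none of which passed. Of 18 tested kinases and transcription factors that act on members, 17 did not pass, 1 was lower and 0 were higher. It was RPS6KA1 (-0.28 ± 0.07), which encodes the kinase RSK1 that phosphorylates BAD, and the call was lost with scaling by total count alone, with DESeq2, with length and GC trends removed (adjusted p = 0.061) and in 5 of the 6 fits that left out a library, all but that without SW-138 replicate 2. With total count alone, and with length and GC trends removed, the counts for this list were 1 higher and 0 lower. FOXO3, a transcription factor that activates BCL2L11, was at 0.07 ± 0.05 (log2 fold change, SE) and did not pass. DYNLL2, HUWE1, FBXW7 and FOXO3 were named here for their roles after their values were seen. The medians of these lists were -0.04 and -0.08. Over all 7 lists 78 genes were tested, of which 1 was higher and 8 were lower. Among all tested genes 2.76% were higher and 4.06% lower, and no test of the lists was run.

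**Figure D4:**
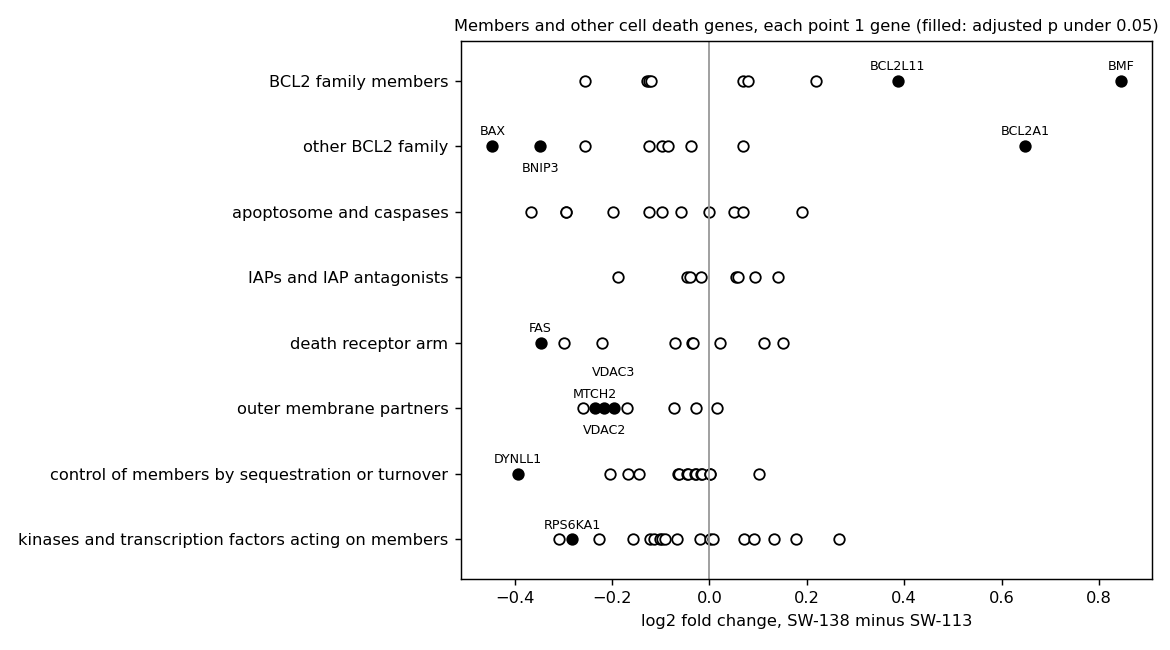
Log2 fold change, SW-138 minus SW-113, of the tested members and of the tested genes of 7 cell death lists; each point is 1 gene and filled points passed at an adjusted p under 0.05. The filled points right of 0 are BMF, BCL2L11 and BCL2A1, and the other 8 lie left of 0.

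The pattern of BMF over the 6 libraries was matched most closely by MKS1, a cilium gene (Pearson r = 0.9927 of log2 CPM), the antisense transcript TMEM147-AS1 (0.9902) and the kinesin gene KIF13B (0.9888). They were picked from 9493 genes with a mean of at least 10 CPM, of which 81 had r over 0.95, and with so few libraries that share the same compound split many genes reach such values. The size of their differences was not that of BMF. MKS1 was at 0.11 ± 0.08 (log2 fold change, SE) and did not pass, while TMEM147-AS1 was at 0.33 ± 0.07 and KIF13B at 0.21 ± 0.05, both higher (edgeR, Benjamini-Hochberg adjusted p = 0.0219 and 0.0437). When 1 library was left out, TMEM147-AS1 passed in 2 of 6 fits, those without SW-138 replicate 2 or SW-113 replicate 1, and KIF13B in 0 of 6 (adjusted p from 0.0516 to 0.176). KIF13B was also lost with length and GC trends removed (adjusted p = 0.051).

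**Figure D5:**
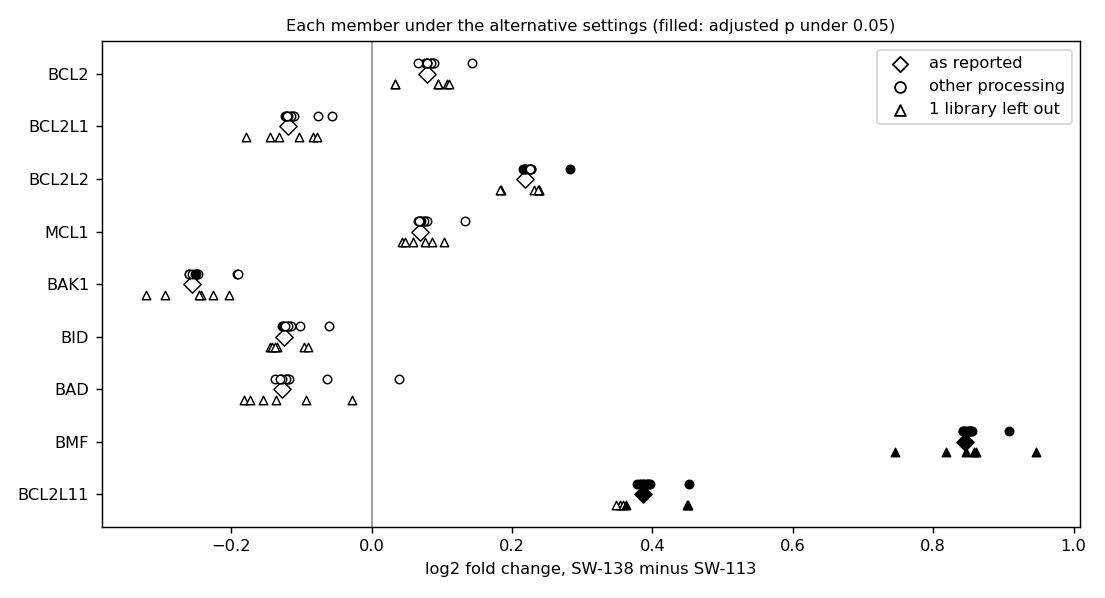
Log2 fold change, SW-138 minus SW-113, of the 9 tested members as reported (diamonds), under 10 other ways of processing (circles) and with 1 library left out (triangles); filled symbols passed at an adjusted p under 0.05. BMF is filled throughout, from 0.75 to 0.95, and BCL2L11 is open in 3 of the fits that left out a library.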

How the data were processed

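The authors deposited 1 table of expected counts per gene and library. The submitters' processing notes list RSEM 1.3.3, Bowtie2 2.5.4, DESeq2 1.42.0 and Trimmomatic 0.39, with no role or order, and the build GRCh38. Annotation version, filters and strand setting are not given in the sources used here. Of the values in a library, 10.6% to 11.6% were not whole, and they were rounded. Genes passing filterByExpr (16905) were tested with edgeR 4.0.16 (quasi-likelihood, TMM factors, no block, Benjamini-Hochberg at 0.05). Standard errors and 95% interval widths came from limma-voom (limma 3.58.1, R 4.3.3). The fit was tested on simulated data with 49 changed genes at each size. It recovered 42.9% of changes of 1.25-fold, 55.1% of 1.5-fold, 79.6% of 2-fold and 95.9% of 4-fold. It also made 17 false calls, with 16654 genes in that fit. Small differences can therefore be missed, and some calls can be false. Coordinates, transcript lengths and overlaps came from GENCODE 29, matched for 57055 rows. Promoters of RefSeq matched 7 of the 10 genes; BCL2L2, MCL1 and BIK had no entry.

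The members and lists were chosen with earlier results of these data known. All members and the lists' genes past the threshold (otherwise the 2 with the smallest p) were named, with the 3 genes most like the member with the smallest p. Separate cultures are not stated for the replicates; p-values then measure only how these samples vary, which may be technical. Every pair of replicates differed by more than sampling noise (chi-square per degree of freedom of 6.045 or more). Alternatives were 3 scalings, 2 filters, 3 other tests, a replicate block, leaving out each library and removal of length and GC trends.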

Additional observations from a re-analysis of the deposited data

How the results depend on the processing

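BMF kept its direction and its call in all 16 alternatives, at log2 fold changes from 0.75 to 0.95. The count of members called, 2 as reported, was 4 with a replicate block (3 higher, 1 lower) and ran from 1 to 2 when a library was left out. The 2 added by the replicate block were BCL2L2 (0.22, adjusted p = 0.0322) and BAK1 (-0.25, adjusted p = 0.0292). BAK1, whose adjusted p ran from 0.0292 to 0.251 over the alternatives, also passed with genes kept at 1 count in 1 library (0.0394). In the apoptosome and caspase list, 0 as reported, the block called ENDOG alone (adjusted p = 0.0349), and of the outer membrane partners, 3 as reported, it called 5. Between same-numbered libraries of the 2 compounds the correlations of deviations were 0.0487, 0.222 and 0.0576 for replicates 1, 2 and 3. Between libraries of different numbers they ran from -0.158 to 0.109. The labels do not say whether a number marks a shared batch, and these values do not settle it. Over all genes the count, 1153 as reported, was 2363 with the block, 2060 with genes kept at 1 count in 1 library, and from 303 to 1616 when a library was left out. The share of calls that were higher, 40.4% as reported, was 71.0% with scaling by total count alone. Of the other cell death genes 9 were called as reported, 16 with the block, 14 with genes kept at 1 count in 1 library, and from 3 to 14 when a library was left out. Signs turned in BAD (0.0395) and BBC3 (0.0526) with length and GC trends removed, and BBC3 ran from -0.20 to 0.0078 when a library was left out; the cause was not tested. With the median length of coding transcripts in place of the longest, 4 of the 10 genes kept their place in the order of levels, and with the union of exons 8 did. Depth limits BIK, at 13 counts or fewer per library.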
